A study of Mus musculus with 7 samples.

Results

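The genes described here encode the proteins of the 2 ribosomes of a mouse cell, the cytosolic ribosome and the mitochondrial ribosome. They were chosen from the deposited table of 27810 genes by symbol: Rpl or Rps followed by a number and at most one of the letters a, l or x, with Rplp0, Rplp1, Rplp2 and Rpsa added, for the cytosolic ribosome, and Mrpl or Mrps followed by a number and at most one letter for the mitochondrial ribosome. Pseudogenes named with -ps were left out. The rule found 160 members, 82 cytosolic (50 of the large and 32 of the small subunit) and 78 mitochondrial (49 large and 29 small). GENCODE annotates 157 of them as protein-coding, and the cytosolic members Rps4l, Rpl6l and Rpl32l as pseudogenes.

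Bulk RNA sequencing was done on livers of male wild-type C57BL/6j mice. From 5 weeks of age all groups received a diet called WD, with 40% fat, 20% fructose and 2% cholesterol, which the labels use as a model of NASH, a fatty liver disease with inflammation. After 32 weeks on the diet each mouse received 1 injection into the tail vein, and livers were taken after 40 weeks. The MSC group (3 libraries, replicates 0, 1 and 2) received mesenchymal stromal cells from human umbilical cord (hUC-MSCs), the vehicle group (3 libraries, replicates 1, 3 and 4) received PBS, and 1 further vehicle library, replicate 6, has the word Cancer in its label. That library is called Cancer-labelled here, since the labels do not say what the word refers to. No group without the diet was among the samples used here. Whether each library is a separate animal is not stated outright, so the tests rest on a spread between libraries that may be technical.

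The cytosolic ribosome translates nuclear messages and the mitochondrial ribosome translates the few messages of the mitochondrial genome, which encode core subunits of the respiratory chain. All proteins of both ribosomes are encoded in the nucleus, and those of the mitochondrial ribosome are imported. In mammals most messages for cytosolic ribosomal proteins begin with a C followed by a run of pyrimidines, the 5′ terminal oligopyrimidine (TOP) tract. Through this tract mTORC1, a growth-regulating kinase complex, and the RNA-binding protein Larp1 control their translation, so an mRNA level alone does not give the rate at which the protein is made. In the liver, an organ that exports large amounts of protein, ribosomes are among the main products of gene expression.

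The first bases of 6 members and of the retrogene Rps27rt are printed because a TOP tract can be seen only at the very start of a message. Each window runs from 20 bases before to 10 bases after the RefSeq start of the gene, taken from the RefSeq promoter table of GRCm38.p6, and reads 5′ to 3′ on the gene's strand. Capitals mark a tract of C followed by at least 5 pyrimidines (C or T) that begins within 5 bases of the start.
Rpl38 (chr11:114668560-114668589, + strand): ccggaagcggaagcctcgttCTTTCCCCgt
Rps21 (chr2:180257359-180257388, + strand): gcacttaccgaggacccgCCCTCCTgccca
Rps27 (chr3:90213639-90213668, - strand): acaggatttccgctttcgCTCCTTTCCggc
Rps27rt (chr9:114982730-114982759, - strand): ggttaagaacttatcccttgCTTTCCggcg
Rps16 (chr7:28350669-28350698, + strand): taaagcccgcttctgtcgtgacgtagcact
Mrps12 (chr7:28741812-28741841, - strand): gccaatcactaaggaggaaccccggaaggg
Mrps2 (chr2:28468046-28468075, + strand): ggcgctctgccgggcaggaagagtctctgc
The table held 129 of the 160 members, each represented by the first start listed. The tract, read on the gene's own strand only, was present in 25 of 60 cytosolic members (41.7%) and in 4 of 69 mitochondrial members (5.8%), against 10.2% of all 27025 genes in the table. The 4 mitochondrial genes were Mrpl11, Mrpl3, Mrpl45 and Mrps33. A tract that lies at another start, such as one annotated a few bases away, would not be seen in these windows.

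The 2 sets of promoters were more alike in other letters. The motif CCGGAAG, a form that ETS-family factors such as GABP bind, was searched on both strands over 300 bases (250 before to 50 after the start). It was found in 40% of the cytosolic and 36.2% of the mitochondrial promoters, against 9.12% of all promoters, and it can be read at the left end of the Rpl38 window and near the right end of the Mrps12 window. The motif of Nrf1, a regulator of nuclear genes for mitochondria, reads GCGC, any base, then TGCGC, and was found in 6.67% of cytosolic, 18.8% of mitochondrial and 4.78% of all promoters. AAGATGGC, a motif of YY1, was found in 6.67%, 17.4% and 2.88%, and the E-box CACGTG, bound by Myc, in 8.33%, 7.25% and 7.24%. These are matches of letters and do not show binding.

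FPKM scales fragments by transcript length and by the mapped fragments of the library, so levels can be compared between genes. Read depth cannot be recovered from these values. The libraries held 9655 to 12041 genes at 1 FPKM or more, the most in the Cancer-labelled library. Transcripts of the mitochondrial genome made up 36.4% of the FPKM total of MSC replicate 1 and 16.5% to 23.3% of the others. The 8 hepatocyte markers (Alb, Apoa1 and others) summed to between 25000 and 43969 FPKM, so every library was liver by its defining genes. Markers of bile duct cells (8 genes, with Krt19, Krt7 and Epcam) summed to 531 FPKM in the Cancer-labelled library, 48.2 to 165 in vehicle and 31.4 to 145 in MSC libraries. Lymphocyte markers (9 genes) summed to 15.4, 5.19 to 7.76 and 2.75 to 7.86 FPKM, and red cell markers (5 genes) to 563, 210 to 903 and 105 to 224 FPKM, in the same order of groups. In these whole-tissue samples fewer cells of a type and less RNA per cell cannot be told apart.

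Cytosolic ribosomal protein genes were expressed at a higher level than mitochondrial ones in every library. For a filter of 1 FPKM in at least 3 of the 6 MSC and vehicle libraries, 79 of the 82 cytosolic and all 78 mitochondrial members remained. The median of their mean FPKM over 7 libraries was 57.4 for the cytosolic members (range 5.53 to 317) and 7.96 for the mitochondrial members (range 1.79 to 40.7). Among the members Rplp1, an acidic protein of the stalk that recruits translation factors, was highest with a mean of 317 FPKM. It was followed by Rpl4, which lines the exit tunnel, with 186 FPKM, and Rps15 with 176 FPKM. Rps3a1, a small-subunit gene whose symbol the rule does not take in, was at 196 FPKM (MSC replicate 1) to 302 FPKM (Cancer-labelled library). Rpl21 was lowest of the protein-coding cytosolic members that passed, with 5.53 FPKM. Among the mitochondrial members Mrpl12, which also binds the mitochondrial RNA polymerase, was highest with 40.7 FPKM, and Mrpl19 lowest with 1.79 FPKM.

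The 3 members below the filter were all cytosolic and included paralogues known from other tissues. Rpl39l, the testis paralogue of Rpl39, was listed at 0 in 6 libraries and at 0.07 FPKM in vehicle replicate 3. Rpl3l, the striated-muscle paralogue of Rpl3, reached at most 0.151 FPKM. Their partners Rpl3 and Rpl39 had means of 64.1 and 40.8 FPKM. The pseudogene Rpl32l lay just outside the filter, at 0.478 to 0.816 FPKM in the MSC and vehicle libraries and at 1.19 FPKM in the Cancer-labelled library. The members just inside it were Mrpl19 and Mrps35, with means of 1.79 and 1.81 FPKM.

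The members moved together from library to library, and this movement crossed the groups. The summed FPKM of the cytosolic members was 5556, 6659 and 5116 in MSC replicates 0, 1 and 2, 5093, 6041 and 4472 in vehicle replicates 1, 3 and 4, and 6627 in the Cancer-labelled library. The MSC libraries thus overlapped the vehicle libraries, with means of 5777 ± 795 and 5202 ± 791 FPKM (SD, n = 3 each). Vehicle replicate 4 held the lowest value of 70 of the 79 cytosolic members, and MSC replicate 1 and the Cancer-labelled library held the highest value of 36 and 35. The mitochondrial members summed to 695, 895 and 738 FPKM in the MSC libraries, 710, 795 and 642 in vehicle, and 781 in the Cancer-labelled library. Vehicle replicate 4 was again lowest, for 39 of 78 members, and MSC replicate 1 was highest for 32 and the Cancer-labelled library for 21. Markers of 2 other cell types were lowest in MSC replicate 1 and vehicle replicate 3, in each group the library where both sums of members were highest. The 8 markers of sinusoidal endothelium summed to 54.4, 8.97 and 34.6 FPKM in MSC, 40.2, 13.9 and 34.4 in vehicle and 28.0 in the Cancer-labelled library. The 8 macrophage markers summed to 120, 30.0 and 95.3 FPKM in MSC, 113, 54.4 and 151 in vehicle and 75.7 in the Cancer-labelled library. None of the other cell type marker lists was lowest of its group in both of these libraries. Stellate cell and fibroblast markers, for example, were at 71.1 FPKM in vehicle replicate 3 and 59.8 in vehicle replicate 4, and red cell markers were highest in vehicle replicate 3. The part of any of these cell types in the members' values was not tested.

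**Figure D1:**
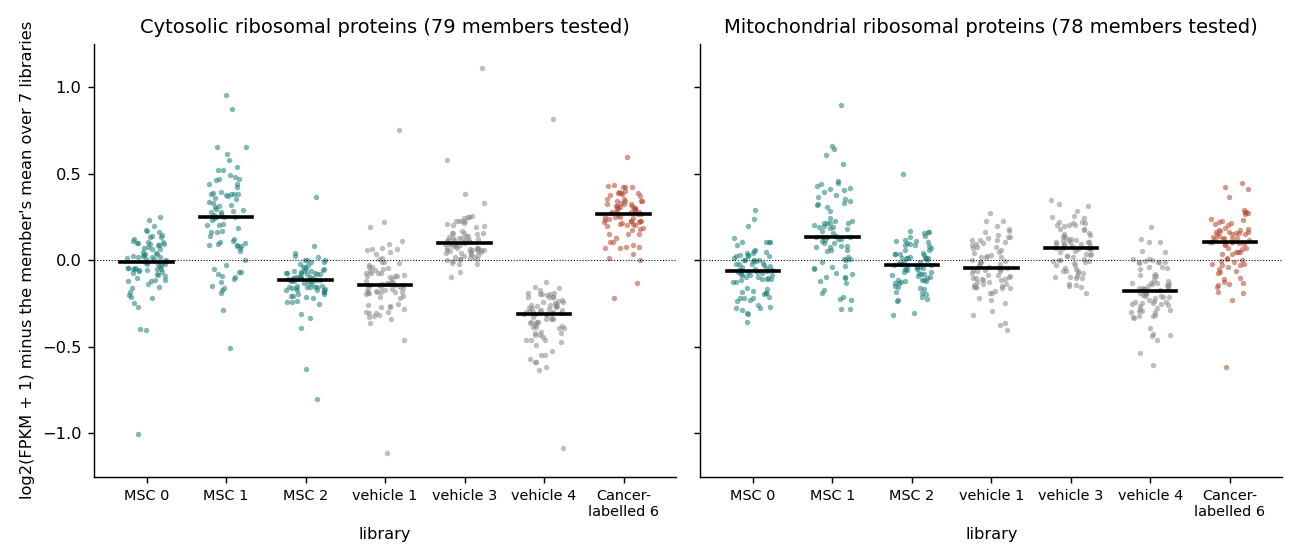
Each point is a ribosomal protein gene, and the vertical axis gives its log2(FPKM + 1) in a library minus its own mean over the 7 libraries, for the 79 cytosolic (left) and 78 mitochondrial (right) members that passed the filter; black bars are medians. Cytosolic medians were highest in the Cancer-labelled library (0.27) and MSC replicate 1 (0.25) and lowest in vehicle replicate 4 (-0.31).

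The balance between the 2 ribosomes was similar in MSC and vehicle libraries, and leaned further to the cytosolic side in the Cancer-labelled library. The summed cytosolic FPKM was 7.99, 7.44 and 6.93 times the mitochondrial sum in the MSC libraries, 7.18, 7.60 and 6.96 times in the vehicle libraries and 8.48 times in the Cancer-labelled library. The MSC and vehicle ratios overlapped, and the Cancer-labelled ratio was above all 6. On the log2 scale the ratio differed by 0.04 between MSC and vehicle means and by 0.23 between the Cancer-labelled library and the vehicle mean, with a pooled SD within groups of 0.09. Within the cytosolic ribosome, large-subunit genes summed to 1.51 to 1.58 times the small-subunit genes in all 7 libraries. The same ratio was 2.26 to 2.42 for the mitochondrial ribosome.

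Between MSC and vehicle livers no ribosomal protein gene passed the test, although most cytosolic members had a small positive difference. Of 157 members tested, 0 had an adjusted p under 0.05 (limma on log2(FPKM + 1), Benjamini-Hochberg over all genes tested), against 2 of 10534 genes, or 0.019%. At an unadjusted p under 0.05, 1 member passed (0 of 79 cytosolic and 1 of 78 mitochondrial), against 5.59% of all genes. The difference was positive in 70 of 79 cytosolic members (88.6%) and in 51 of 78 mitochondrial members (65.4%), against 39.9% of all genes tested. The median log2 difference was 0.15 for the cytosolic members, 0.06 for the mitochondrial members and -0.05 for all genes. Large and small subunits had similar medians, 0.16 and 0.12 in the cytosolic and 0.09 and 0.05 in the mitochondrial ribosome.

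These medians leaned on single libraries and on the scaling. Without MSC replicate 1 the medians were 0.06 (cytosolic) and -0.01 (mitochondrial), and without vehicle replicate 4 they were 0.03 and -0.01. Rescaled to TPM, which fixes each library's sum, the cytosolic median was 0.05 with 56 of 80 members tested positive, and the mitochondrial median turned to -0.02 with 36 of 78 positive. The median of all genes shifted to -0.14 under TPM, so the members' excess over all genes was 0.20 (cytosolic) and 0.11 (mitochondrial) in FPKM and 0.19 and 0.12 in TPM. The excess also leaned on single libraries. It was 0.099 and 0.028 without MSC replicate 1, and it ranged from 0.099 to 0.34 (cytosolic) and from 0.028 to 0.22 (mitochondrial) over the 17 alternatives run.

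**Figure D2:**
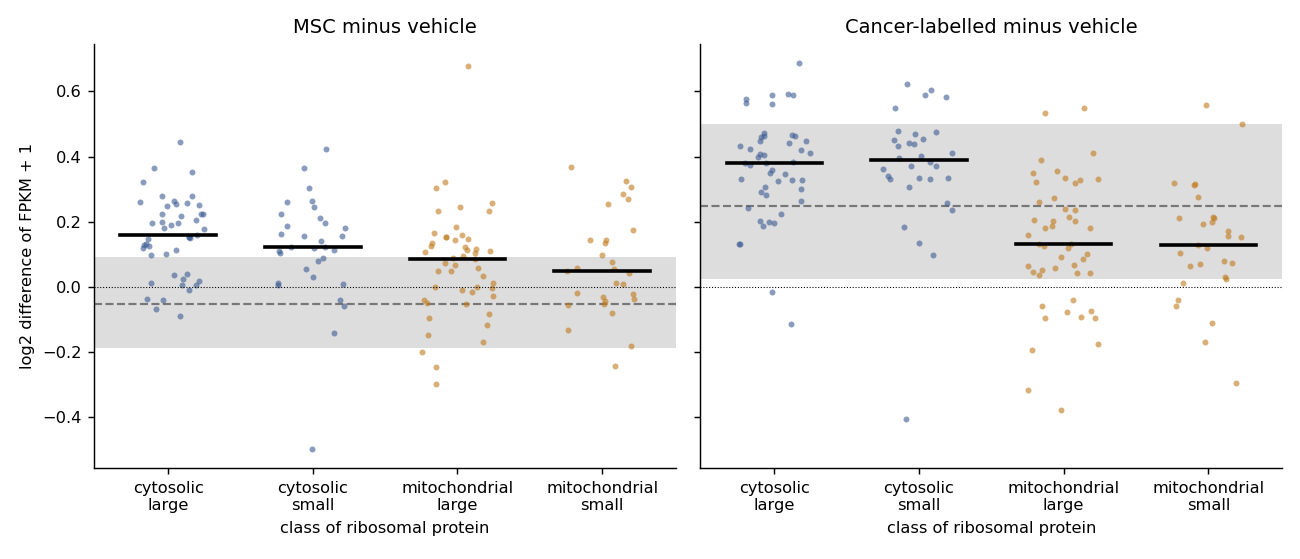
Log2 differences of FPKM + 1 for each member by class, for MSC minus vehicle (left) and the Cancer-labelled library minus vehicle (right), with black bars at class medians, a dashed line at the median of all genes tested and grey bands at their quartiles. For MSC minus vehicle the class medians lay between 0.05 and 0.16, above the all-gene median of -0.05, whereas on the right the mitochondrial medians of 0.13 lay below the all-gene median of 0.25 and the cytosolic medians of 0.38 and 0.39 above it.

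The member with the lowest p was Mrpl38, a protein of the mitochondrial large subunit that has a domain like those of phosphatidylethanolamine-binding proteins. Mrpl38 (GRCm38 chr11:116131817-116138868, - strand) stood at 29.5, 45.6 and 26.4 FPKM in the MSC libraries, 21.9, 21.4 and 17.5 in the vehicle libraries and 15.3 in the Cancer-labelled library. Every MSC library was above every vehicle library, and the Cancer-labelled library was below all 6. The log2 difference between MSC and vehicle was 0.68 ± 0.23 (SE), a 1.67-fold ratio of means, with an adjusted p of 0.709 by limma. Its log2 difference ranged from 0.45 to 0.83 over the alternatives run.

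Other mitochondrial members had smaller differences with groups that did not overlap. Mrps12, the counterpart of bacterial S12 near the decoding centre, was at 15.9, 18.1 and 16.5 FPKM in MSC, 14.3, 13.6 and 12.3 in vehicle and 12.8 in the Cancer-labelled library (log2 difference MSC minus vehicle 0.31 ± 0.16 SE, limma adjusted p = 0.993). Mrps24 was at 12.2, 15.5 and 13.2 in MSC, 10.1, 11.9 and 9.89 in vehicle and 13.4 FPKM in the Cancer-labelled library. In both genes all MSC libraries were above all vehicle libraries. Mrps2, the counterpart of bacterial S2, went the other way with 8.31, 8.14 and 8.38 FPKM in MSC, 10.2, 10.4 and 9.35 in vehicle and 11.7 in the Cancer-labelled library (log2 difference -0.24 ± 0.14 SE, limma adjusted p = 0.995). Mrpl49, a subunit without a bacterial counterpart, had a log2 difference of -0.30, and its MSC libraries (8.23, 8.50 and 9.80 FPKM) were also below all vehicle libraries (10.9, 12.4 and 10.1 FPKM). The Cancer-labelled library also had a negative difference from vehicle in Mrpl49, whereas in Mrps24 it lay within the range of the MSC libraries.

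In all, every MSC library was above every vehicle library in 2 of 79 cytosolic members (2.53%; among them Rpl10, which joins the large subunit late in its assembly) and 3 of 78 mitochondrial members (3.85%; Mrpl38, Mrps12 and Mrps24), against 2.17% of all genes. Every MSC library was below every vehicle library in 0 cytosolic and 4 mitochondrial members (5.13%; Mrpl49, Mrpl50, Mrps10 and Mrps2), against 7.84% of all genes. The share of 0% for cytosolic members below vehicle was under the 7.84% of all genes, and the other shares were near those of all genes. Rpl10, Mrpl50 and Mrps10 are named for this pattern after their values were seen.

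**Figure D3:**
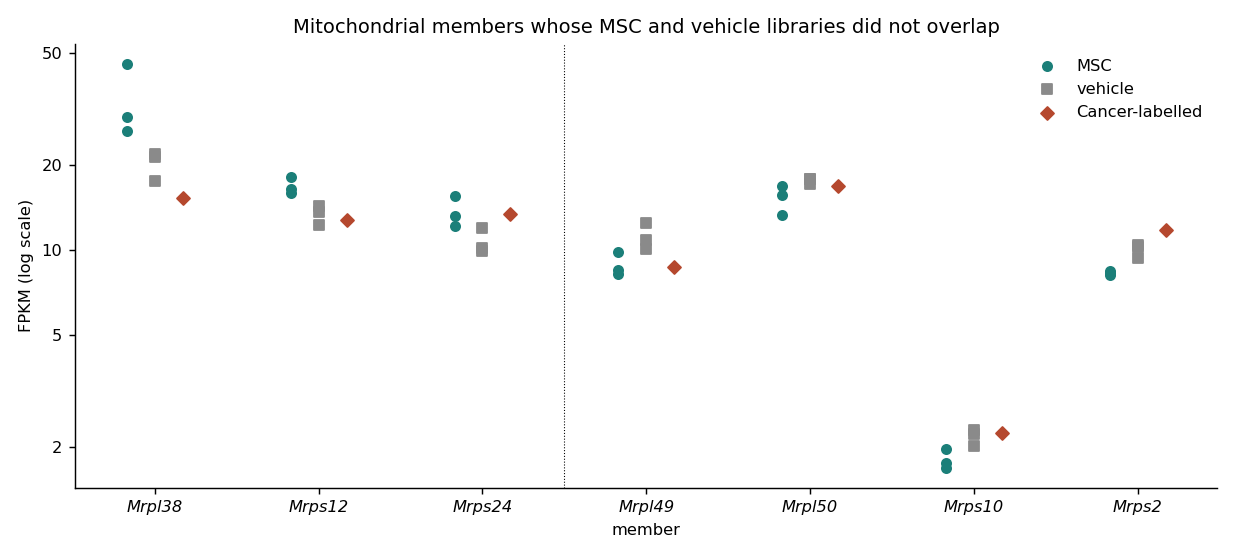
FPKM on a log scale in each library for the 7 mitochondrial members whose 3 MSC libraries (circles) all lay above (left of the dotted line) or all below (right) the 3 vehicle libraries (squares); diamonds are the Cancer-labelled library. Mrpl38 shows the widest gap, 26.4 to 45.6 against 17.5 to 21.9 FPKM. In Mrpl38 and Mrps12 the Cancer-labelled library (15.3 and 12.8 FPKM) was on the vehicle side. In Mrps24 that library was on the MSC side, and in Mrpl49 its difference from vehicle was negative, as for MSC.

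The cytosolic members with the largest positive differences between MSC and vehicle encode short proteins. Rpl38, whose loss causes the Tail-short phenotype in mice, was at 59.8, 96.0 and 60.2 FPKM in MSC, 47.0, 69.4 and 41.3 in vehicle and 64.7 in the Cancer-labelled library. Rps29 was at 61.1, 95.6 and 57.0 FPKM in MSC, 44.8, 73.8 and 41.0 in vehicle and 77.9 in the Cancer-labelled library. Rps21 was at 59.0, 71.9 and 51.1 FPKM in MSC, 48.4, 59.0 and 35.1 in vehicle and 70.1 in the Cancer-labelled library. In all 3 genes MSC replicate 1 was the highest MSC library, vehicle replicate 3 the highest vehicle library, and the groups overlapped. Their log2 differences were 0.45, 0.42 and 0.36, and none passed the test (limma adjusted p = 0.995 for each).

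Rpl17, Rpl37a, Rpl13, Rps16 and Rps27a had log2 differences of 0.35, 0.28, 0.25, 0.24 and 0.30 with overlapping groups. The longer members Rpl4 and Rpl3 stood close to 0. Rpl4 was at 200, 172 and 171 FPKM in MSC and 187, 193 and 167 in vehicle, a log2 difference of -0.01, and Rpl3, near the peptidyl transferase centre, had a difference of 0.01. Rps6, the phosphorylation target of S6 kinase, had a difference of 0.12.

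Coding length was therefore set against each member's deviation in every library. The longest annotated coding length (GENCODE M21) ran from 141 to 1260 bases over 77 cytosolic members and from 198 to 1329 over 78 mitochondrial members. Across the cytosolic genes Spearman's rho between length and deviation was 0.44, -0.48 and -0.07 in MSC replicates 0, 1 and 2, 0.43, -0.43 and 0.39 in vehicle replicates 1, 3 and 4, and -0.01 in the Cancer-labelled library. Across the mitochondrial genes it was 0.42, -0.43 and -0.17, then 0.50, -0.31 and 0.24, and -0.05. Short members were thus relatively high in MSC replicate 1 and vehicle replicate 3 and relatively low in MSC replicate 0 and vehicle replicates 1 and 4, in both ribosomes. The genes of one library share its preparation and are not independent.

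The same signs appeared outside the ribosome in 6 libraries. Over 9189 protein-coding genes that are not members, rho was 0.26, -0.26 and -0.23 in the MSC libraries, 0.28, -0.33 and 0.23 in vehicle and 0.13 in the Cancer-labelled library. In MSC replicate 1 the median log2 deviation was 0.37 for the 25 shortest cytosolic members (141 to 402 bases) and 0.09 for the 26 longest (585 to 1260 bases). In vehicle replicate 4 the same medians were -0.34 and -0.26. The MSC minus vehicle difference had rho of -0.37 (cytosolic) and -0.38 (mitochondrial) with coding length. The part of this length relation in the members' differences was not tested.

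**Figure D4:**
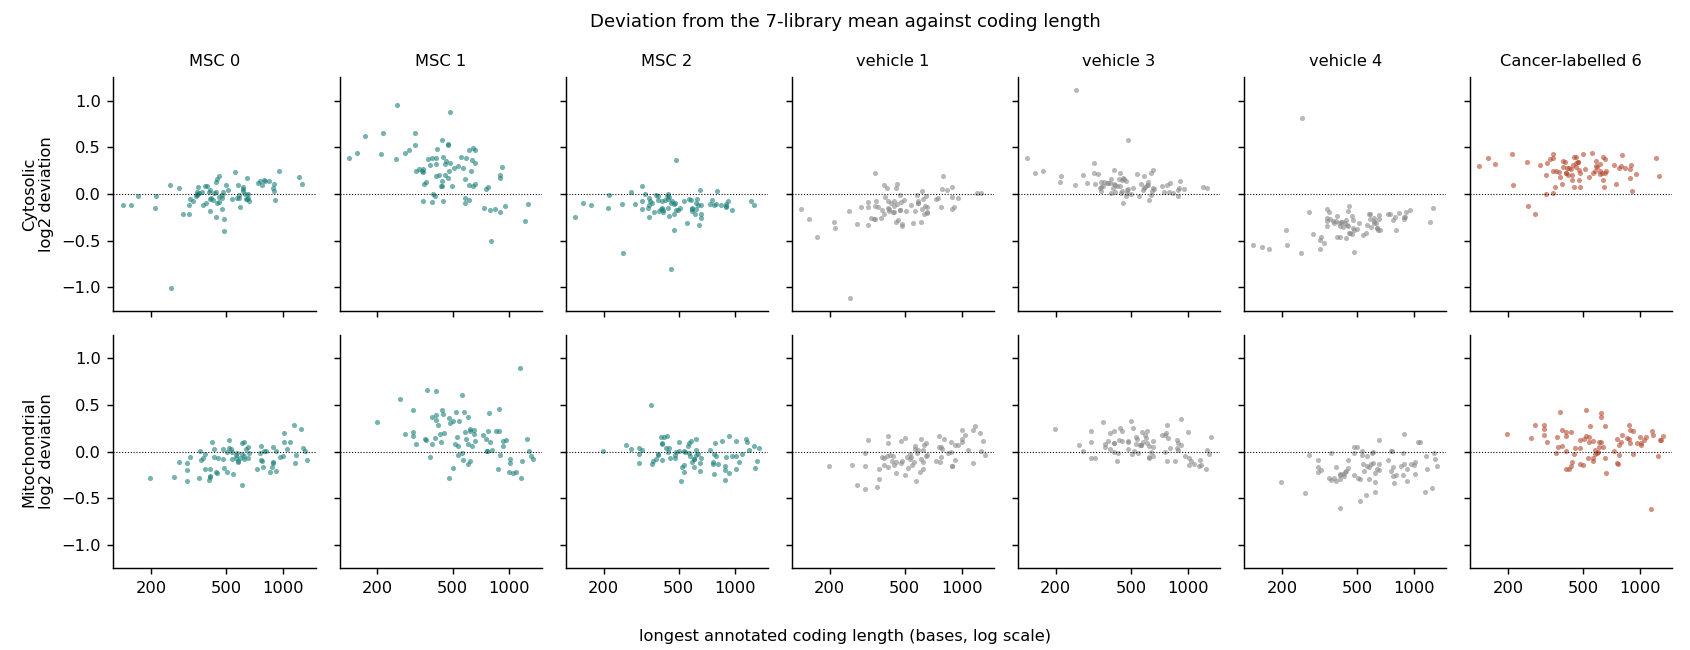
Each panel plots, for 1 library, the longest annotated coding length in bases (log scale) of the cytosolic (top) and mitochondrial (bottom) members against their log2 deviation from the 7-library mean. Points slope down in MSC replicate 1 (rho -0.48 and -0.43) and vehicle replicate 3 (-0.43 and -0.31), up in MSC replicate 0 (0.44 and 0.42) and vehicle replicate 1 (0.43 and 0.50), and are flat in the Cancer-labelled library (-0.01 and -0.05).

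The same 3 vehicle libraries served as reference for the Cancer-labelled library, so both comparisons share them, and the spread came from the MSC and vehicle groups. Most cytosolic members had higher values in it, as did most genes, and no member passed the test. Of 158 members tested, 0 had an adjusted p under 0.05 by limma, against 511 of 12265 genes, or 4.17%. At an unadjusted p under 0.05 only Rpl32l passed (1 of 80 cytosolic and 0 of 78 mitochondrial), against 17.2% of all genes. Rpl32l was tested only because it reached 1 FPKM in the Cancer-labelled library, so its p is not independent of that filter. The difference was positive in 77 of 80 cytosolic members (96.2%) and 62 of 78 mitochondrial members (79.5%), against 77.1% of all genes. The median log2 difference was 0.38 for cytosolic members, 0.13 for mitochondrial members and 0.25 for all genes, which puts the cytosolic median 0.13 above and the mitochondrial median 0.12 below that of all genes. Over the 16 alternatives the distance from the all-gene median ranged from 0.059 to 0.43 for the cytosolic members and from -0.16 to 0.064 for the mitochondrial members. The mitochondrial distance was positive (0.064) when no filter on low values was set, where the median of all genes was 0.07. Only 10534 of the 12265 genes passed the filter in the MSC and vehicle libraries, and the rest entered through the Cancer-labelled library. Such entry favours positive differences, so the all-gene median and the all-gene shares above vehicle lean upward. All members tested here except Rpl32l passed the filter in the MSC and vehicle libraries.

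The counts against single libraries were as follows. The Cancer-labelled library was above every vehicle library in 62 cytosolic (77.5%) and 35 mitochondrial members (44.9%), against 56.2% of all genes. It was above all 6 other libraries in 36 cytosolic (45%) and 21 mitochondrial members (26.9%), against 46.5% of all genes. It was below every vehicle library in 0 cytosolic and 7 mitochondrial members (8.97%), against 10.6% of all genes. Centring libraries on their medians left a cytosolic median of 0.07 and turned the mitochondrial median to -0.18. Under quantile normalization these medians were 0.40 and -0.11. The median of all genes moved to -0.06 and -0.03 under these scalings.

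Among cytosolic members the largest positive differences from vehicle were those of Rpl17, Rpl39, Rpl13 and Rplp1 in the large subunit (log2 0.69, 0.59, 0.59 and 0.59) and Rps4l, Rps28, Rps29 and Rps21 in the small subunit (0.62, 0.61, 0.59 and 0.58). Rplp1 was at 420 FPKM in the Cancer-labelled library, 260, 326 and 256 in vehicle and 308, 372 and 281 in MSC, and was above all 6 other libraries. Its limma adjusted p was 0.420. Rpl13 was at 74.6 FPKM, above all vehicle libraries (48.7, 56.2 and 43.6) and all MSC libraries (54.3, 72.7 and 51.9), with an adjusted p of 0.341 by limma. Negative differences were found in 3 cytosolic members: Rps27 (-0.40), Rpl37a (-0.11) and Rpl30 (-0.02). Each turned positive under an alternative. Without vehicle replicate 3 the difference was 0.016 for Rps27 and 0.039 for Rpl37a, and for Rpl30 it was 0.080 without vehicle replicate 1, 0.042 under TPM and 0.059 once mitochondrially encoded genes were removed. Rpl22 and Rpl34, next in that order, were at 0.13 each and at -0.18 each under median centring.

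Among mitochondrial members the largest positive differences were those of Mrpl22, Mrpl40, Mrpl34 and Mrpl18 (0.55, 0.53, 0.41 and 0.39) and of Mrps25, Mrps6, Mrps21 and Mrps14 (0.56, 0.50, 0.32 and 0.32). The largest negative ones were those of Mrpl38, Mrpl49, Mrpl41 and Mrpl16 (-0.38, -0.32, -0.19 and -0.17) and of Mrps34, Mrps18b, Mrps18c and Mrps12 (-0.29, -0.17, -0.11 and -0.06). The difference of Mrps12 was 0.01 once mitochondrially encoded genes were removed. The Cancer-labelled library was below all 6 others in 4 mitochondrial members (5.13%; Mrpl38, Mrpl43, Mrps18b and Mrps34) and in 0 cytosolic members, against 4.88% of all genes. Mrps34, a subunit needed for stability of the small mitochondrial ribosomal RNA, was at 7.38 FPKM against 8.53, 9.65 and 9.67 in vehicle and 8.70, 9.63 and 8.37 in MSC. Mrps34 overlaps Nme3 on the same strand, so its reads could be divided between the genes.

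The 3 mammalian relatives of bacterial S18 were present together. Mrps18c was highest at 14.1 to 18.6 FPKM over the 7 libraries, Mrps18b was at 9.14 to 11.8 and Mrps18a at 4.57 to 5.92. Their MSC minus vehicle differences were 0.14, -0.02 and -0.04 on the log2 scale, with overlapping groups.

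One member, Rps27, varied in a way of its own. Rps27 (GRCm38 chr3:90212522-90213648, - strand), a zinc-finger protein of the small subunit, was at 17.1, 69.3 and 22.4 FPKM in MSC, 15.8, 77.2 and 62.8 in vehicle and 32.1 in the Cancer-labelled library. Its highest value was 4.90 times its lowest, the widest range among the 79 cytosolic members tested, with high and low libraries in both groups. The rule does not take in Rps27rt, a retrogene on chromosome 9, which was at 246, 160 and 209 FPKM in MSC, 217, 99.6 and 43.3 in vehicle and 221 in the Cancer-labelled library. Where one of the 2 genes was high the other tended to be low, so that Rps27 made up 6.48%, 30.2% and 9.70% of their sum in MSC, 6.76%, 43.7% and 59.2% in vehicle and 12.7% in the Cancer-labelled library.

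The coding sequences are given because they bear on how reads could be assigned. Those of Rps27 and Rps27rt (GENCODE M21 transcripts, stop codon included) have the same 255 bases with 0 differences, and are printed once. That of Rps27l, the paralogue in which 61 bases differ (76.1% identity), follows with the differing bases in capitals.
Rps27 and Rps27rt: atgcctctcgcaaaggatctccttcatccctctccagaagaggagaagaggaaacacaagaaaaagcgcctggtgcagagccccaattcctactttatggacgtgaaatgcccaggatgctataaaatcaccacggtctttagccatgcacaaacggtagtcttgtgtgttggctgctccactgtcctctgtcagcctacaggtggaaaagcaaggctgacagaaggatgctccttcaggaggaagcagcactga
Rps27l: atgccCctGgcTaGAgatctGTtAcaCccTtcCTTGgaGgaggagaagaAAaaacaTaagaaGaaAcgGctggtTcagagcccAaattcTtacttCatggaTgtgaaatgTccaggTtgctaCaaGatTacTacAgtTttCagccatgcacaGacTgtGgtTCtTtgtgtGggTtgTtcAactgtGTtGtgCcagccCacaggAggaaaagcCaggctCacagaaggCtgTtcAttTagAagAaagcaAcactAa
A read within the coding sequence matches both Rps27 and Rps27rt equally well, so the value of either gene is uncertain. Both also begin with a pyrimidine tract that ends in the same letters, as the windows above show. The sum of the 2 genes was 263, 230 and 231 FPKM in MSC (241 ± 19.04, SD, n = 3), 233, 177 and 106 in vehicle (172 ± 63.6, SD, n = 3) and 253 in the Cancer-labelled library. Vehicle replicate 1 lay within the range of the MSC libraries, so the sums overlapped. Rps27l, which is known as a p53 target, was at 79.8, 134 and 98.6 FPKM in MSC, 84.6, 117 and 61.5 in vehicle and 93.2 in the Cancer-labelled library.

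**Figure D5:**
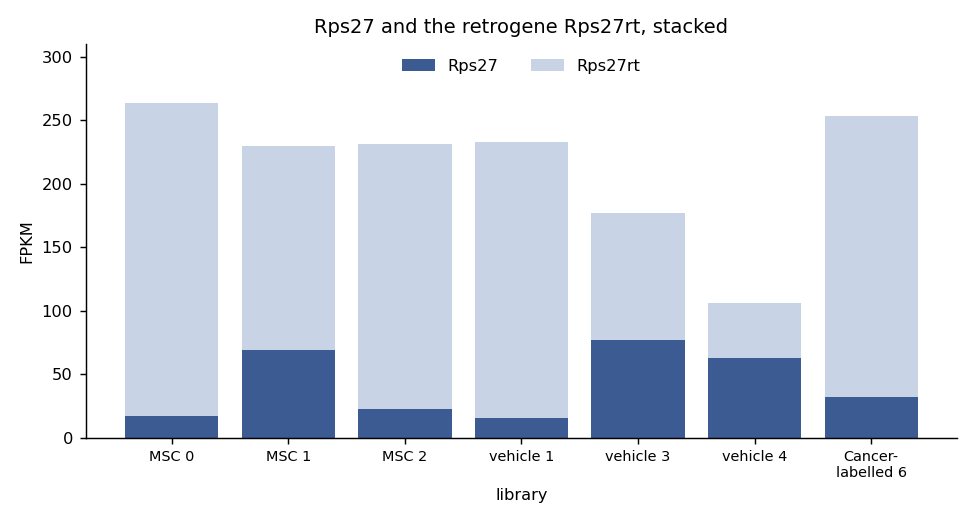
Stacked bars give the FPKM of Rps27 (dark) and the retrogene Rps27rt (light), which have the same coding sequence, in each of the 7 libraries. Rps27 made up between 6.48% (MSC replicate 0) and 59.2% (vehicle replicate 4) of the sum, and the sum was lowest in vehicle replicate 4 at 106 FPKM.

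Rps4l, annotated as a pseudogene of Rps4x, had the next widest range, 4.64-fold. It was at 4.43, 6.71 and 5.24 FPKM in MSC, 11.1, 7.54 and 2.39 in vehicle and 9.86 in the Cancer-labelled library, so that its vehicle libraries held both extremes. The 208 genes named as ribosomal protein pseudogenes (-ps) summed to 1023 to 1559 FPKM, or 22.1% to 26.1% of the cytosolic sum, which was nearly the same share in each library. Over 77 protein-coding cytosolic members the level had a rho of -0.14 with the number of pseudogenes that carry the member's name, of which the most was 18.

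Genes that make and serve ribosomes were taken from lists that were chosen with earlier results of these data known. The list of cytosolic ribosomal proteins whose symbols escape the rule had 7 genes (Fau, Rack1, Rpl22l1 and others). It included Rps19bp1 (log2 MSC minus vehicle 0.04), which binds Rps19 and is not a subunit. Rps3a1 (-0.07), a subunit gene that also escapes the rule, was not on it. Of the 7 differences between MSC and vehicle 6 were positive and 1 negative, with a median of 0.11. Under TPM this median was 0.006 with 4 positive and 3 negative, and without MSC replicate 1 it was 0.043 with the same counts. The 5 mitochondrial ribosome subunits (Dap3, Gadd45gip1 and others) had 4 positive and 1 negative, with a median of 0.05 that turned to -0.05 under TPM and to -0.03 without MSC replicate 1. By limma 0 of either list were called and 0 had an unadjusted p under 0.05. Rpl22l1, the paralogue of Rpl22, had the lowest p of the first list, at 13.7, 15.7 and 11.5 FPKM in MSC, 9.78, 12.2 and 7.38 in vehicle and 18.3 in the Cancer-labelled library (log2 MSC minus vehicle 0.45, limma adjusted p = 0.916). Its groups overlapped, and the Cancer-labelled library was above all 6.

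Most ribosome assembly factors had a negative difference in the MSC comparison, where most cytosolic ribosomal proteins had a positive one, though none passed the test. The mitochondrial ribosomal proteins did not keep 1 sign over the alternatives. The part of the length relation described above in this contrast was not tested. Of 38 tested genes for assembly and RNA polymerase I, which transcribes ribosomal RNA, 3 had a positive and 35 a negative difference, with a median of -0.23. Among all genes tested 39.9% were positive and the median was -0.05, so negative was the more common sign. Of the 38 genes, 0 were called by limma and 5 had an unadjusted p under 0.05, against 5.59% of all genes. Nolc1, a nucleolar phosphoprotein, had means of 3.72 ± 0.27 FPKM in MSC and 6.30 ± 0.78 in vehicle (SD, n = 3 each; log2 difference -0.62, limma adjusted p = 0.554). Rrs1, which brings the 5S particle into the large subunit, had means of 6.91 ± 0.44 and 10.9 ± 0.72 FPKM (-0.58, limma adjusted p = 0.580). Rrp12 and Tsr1, both needed for maturation of the small subunit, had differences of -0.55 each. Between 0 and 8 members of this list were positive under the 4 other scalings of the libraries.

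Translation factors had 7 positive and 33 negative differences of 40 (median -0.13), regulators around mTORC1 and Myc 4 and 14 of 18 (median -0.10), and mitochondrial translation factors 16 and 22 of 38 (median -0.05), where 39.9% of all genes were positive and their median was -0.05. Without MSC replicate 1 the translation factors had 14 positive of 40 and a median of -0.03. By limma 0 were called in each list, and 0 had an unadjusted p under 0.05. Larp1, which binds TOP tracts, had means of 11.5 ± 1.83 FPKM in MSC and 15.1 ± 1.87 in vehicle (SD, n = 3 each; log2 difference -0.37, limma adjusted p = 0.962). The median of mitochondrial translation factors was 0.03 once mitochondrially encoded genes were removed and 0.00 under quantile normalization. Genes encoded by mitochondrial DNA had 13 positive differences of 13 with a median of 0.30, and by limma 0 were called or had an unadjusted p under 0.05. MSC replicate 1 held 175411 FPKM of them in sum against 58770 and 79014 in the other MSC libraries, and without it 1 of 13 was positive with a median of -0.13. Among cytosolic members with a TOP tract in the RefSeq window the median difference was 0.14 (24 genes), and without one it was 0.15 (33 genes).

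In the Cancer-labelled library the assembly list was positive against vehicle in 37 of 40 genes (median 0.28), translation factors in 34 of 40 (0.14), the mTORC1 and Myc list in 13 of 18 (0.14) and mitochondrial translation factors in 28 of 39 (0.15), against 77.1% of all genes. By limma 0 were called in each, against 4.17% of all genes, and 3, 0, 1 and 2 had an unadjusted p under 0.05, against 17.2% of all genes. Under median centring 18, 7, 3 and 8 of these genes were positive, and under quantile normalization 19, 24, 4 and 7. Nop56, a core protein of the particles that methylate ribosomal RNA, was at 8.20 FPKM against a vehicle mean of 4.53 (log2 0.74, limma adjusted p = 0.151). Npm1, a nucleolar chaperone of ribosome assembly, was at 63.1 FPKM against 40.3 (0.65, limma adjusted p = 0.299). Myc was at 10.5 FPKM against 3.55 (1.35, limma adjusted p = 0.11). In the same library 7 of 8 bile duct markers were called higher (median log2 difference 2.40), as were 2 of 3 tested markers of fetal and tumour-associated hepatocytes, against 3.98% of all genes. With a pseudocount of 0.1 the counts called were 1 of 8 and 0 of 3, and the count over all genes, in either direction, fell from 511 to 13. Without vehicle replicate 4 the second list had 0 of 3 called, without vehicle replicate 3 it had 1 of 3, and with no filter on low values it had 0 of 6. Only 2 of the 8 bile duct markers and 2 of the fetal and tumour-associated markers passed the filter in the MSC and vehicle libraries. The others were tested only because they reached 1 FPKM in the Cancer-labelled library, so their calls are not independent of that filter. The part of these cell types in the ribosomal protein values was not tested.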

How the data were processed

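Gene expression was analysed in 7 mouse liver libraries, 3 MSC, 3 vehicle and 1 Cancer-labelled vehicle library, grouped by the labels. The authors deposited FPKM values for each gene and library, as the columns of the deposited file name them. StringTie 2.1.6, HISAT2 2.2.1, FastQC 0.11.9 and cutadapt 1.9 are listed in the submitters' processing notes, with mm10 and GRCm38 as builds. The use of strand in counting was not given in the sources used here: a gene's reads and those of an antisense neighbour cannot be told apart. FPKM holds no read counts, so the depth is unknown, and precision is given by the spread between libraries. All 160 member identifiers matched GENCODE M21, 140 with the same start and end; 43 members overlapped another gene on the same strand, many of them a small nucleolar RNA, and 48 on the opposite strand.

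Values were analysed as log2(FPKM + 1), which makes changes of low genes look smaller. Genes at 1 FPKM or more in at least 3 of the 6 MSC and vehicle libraries were tested for MSC minus vehicle with limma (eBayes with trend), with Benjamini-Hochberg adjustment over all of them and a threshold of 0.05. The Cancer-labelled library was compared in a 3-group limma fit over 7 libraries, for genes past the same filter or at 1 FPKM or more in that library. The steps were tested on simulated data. Members, lists and the naming rule were chosen with earlier results of these data known. The rule named, in each of the 4 classes, the 3 highest members, the 4 with the lowest p for MSC minus vehicle, the 4 largest positive and 4 largest negative for the Cancer-labelled library, paralogue pairs, members next to the filter, and up to 4 genes of lowest p per list. Not every gene it named is printed. Alternatives covered the pseudocount (0.1 and 5), the filter, TPM, median centring, quantile normalization, removal of mitochondrially encoded genes, the options of eBayes, counting the Cancer-labelled library as vehicle, and omission of single libraries.

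Software was R 4.3.3 with limma 3.58.1 and data.table (version 1.17.8), and Python 3.11.15 with pandas 2.3.3, scipy 1.17.1 and matplotlib 3.10.9.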

Additional observations from a re-analysis of the deposited data

How the results depend on the processing

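No ribosomal protein gene passed the test under any alternative run, in either comparison, and the lowest limma adjusted p among them was 0.195 (pseudocount 5, Cancer-labelled library). That lowest value was for Rpl32l, which was tested there only because it reached 1 FPKM in the Cancer-labelled library. Of the values that answer a comparison, 142 stayed within the spread between libraries and 3 moved further, all for the Cancer-labelled library. The spread used for the medians was 0.20 (cytosolic) and 0.12 (mitochondrial), wider than the MSC minus vehicle medians of 0.15 and 0.06. An MSC median that vanished or changed sign could therefore still count as within it. The 3 values that moved were as follows. The cytosolic median log2 difference was 0.070 and the mitochondrial one -0.18 under median centring, and the mitochondrial one was -0.11 under quantile normalization. Both scalings set libraries to a common centre, and the median of all genes, 0.25 in FPKM, became -0.06 and -0.03. Leaving out 1 library at a time gave median log2 differences between MSC and vehicle of 0.03 to 0.25 (cytosolic) and -0.01 to 0.12 (mitochondrial), and for the Cancer-labelled library of 0.28 to 0.50 and 0.08 to 0.16. The log2 ratio of the cytosolic to the mitochondrial sum differed by -0.01 to 0.09 between MSC and vehicle and by 0.20 to 0.26 for the Cancer-labelled library. With 1 library left out the count of members called was 0 in each case. Single members with small differences changed sign between MSC and vehicle, for example Rpl4 in 7 and Mrpl12 in 6 of 17 alternatives. No paired analysis was possible because the labels give no pairing between MSC and vehicle libraries. Depth is unknown from FPKM, and the number of libraries, 3 a group, limits the precision.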
